A study of Mus musculus with 6 samples.

Results

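10 genes of perineuronal nets and related brain matrix were followed, chosen by symbol from the 24062 symbols in the count files. They are the lectican genes Acan, Bcan, Ncan and Vcan, the link protein genes Hapln1, Hapln2 and Hapln4, the tenascin-R gene Tnr, and the hyaluronan synthase genes Has2 and Has3. RNA came from the ventral dentate gyrus of male mice of the strain labelled C57black 6, in 3 libraries from the group Chronic Restrained Stress (CRS) and 3 from Not-stressed Controls (Ctrl). Restraint confines a mouse repeatedly as a psychological stressor. The series' design text calls the replicates biological, and the labels give no age, no duration of restraint and no number of animals per library. Whether a library holds a single animal or a pool is therefore not known. P-values set the group difference against the spread between these samples. Both groups are bulk dissections, in which fewer cells of a type and less RNA per cell cannot be told apart.

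Perineuronal nets are lattices of extracellular matrix that wrap the cell body and proximal dendrites of certain neurons, best known around fast-spiking parvalbumin interneurons. Their backbone is hyaluronan, which membrane-bound synthases extrude, and lecticans, proteoglycans that carry chondroitin sulfate chains, bind to it. Link proteins hold each lectican to hyaluronan, and tenascin-R cross-links the lecticans at their other end. In the hippocampus such matrix is also found around pyramidal neurons of area CA2, and in a looser form around synapses in general.

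The 6 libraries held 8305753 to 10107953 gene counts each. Levels are given as CPM, a gene's share of its library's gene counts times 1000000, and 3 counts correspond to 0.297 to 0.361 CPM. Markers of the dentate granule neuron, the principal cell of the labelled tissue, were detected in every library, among them Prox1 at 47.5 to 127 CPM in CRS libraries and 93.1 to 132 CPM in Ctrl libraries. CRS replicate 1 stood apart in its tissue makeup. The summed level of 10 granule neuron markers was 596 CPM there, against 1194 and 1356 CPM in CRS replicates 2 and 3 and 1030.2 to 1228 CPM in Ctrl libraries. 10 choroid plexus markers summed to 4742 CPM in the same library, against 29.0 to 33.4 CPM in the other CRS libraries and 25.3 to 26.8 CPM in Ctrl libraries. 7 striatal neuron markers summed to 910.1 CPM there, against 190.2 and 201 CPM in the other CRS libraries and 200.04 to 208 CPM in Ctrl libraries. Fold changes of the tested members and of the named pathway genes are therefore given with and without this library.

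None of the 9 member genes that could be tested passed the test between CRS and Ctrl libraries. Over all 14058 tested genes, edgeR's quasi-likelihood test with Benjamini-Hochberg adjustment called 4 genes at an adjusted p under 0.05, which is 0.0285% of them, and no member was among these. The members' adjusted p-values ran from 0.540 to 0.994, also by that test. At an unadjusted p under 0.05, 1 member passed, Acan, against 8.71% of all tested genes, by the same test. That pass was lost by DESeq2, at an unadjusted p of 0.147, and by edgeR's exact test, at 0.0697. By edgeR's quasi-likelihood test it was lost with the replicate number in the model, at 0.0649. The same test lost it with each library left out other than CRS replicate 3, at 0.0520 to 0.103. 0 members were called by DESeq2, edgeR's exact test or limma-voom, which called 0.761%, 0.932% and 0.00711% of all tested genes. With no filter 0.021% of genes and with a filter on CPM 0.0284% were called by edgeR's quasi-likelihood test, again with 0 members. 5 members had a positive and 4 a negative log2 fold change, with a median of 0.0048, beside a median of 0.0038 over all tested genes. Without CRS replicate 1, 4 were positive and 5 negative, with a median of -0.0093, beside -0.0053 over all genes tested then. Has2, at 3 to 17 counts per library, did not pass the filter on low counts.

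**Figure D1:**
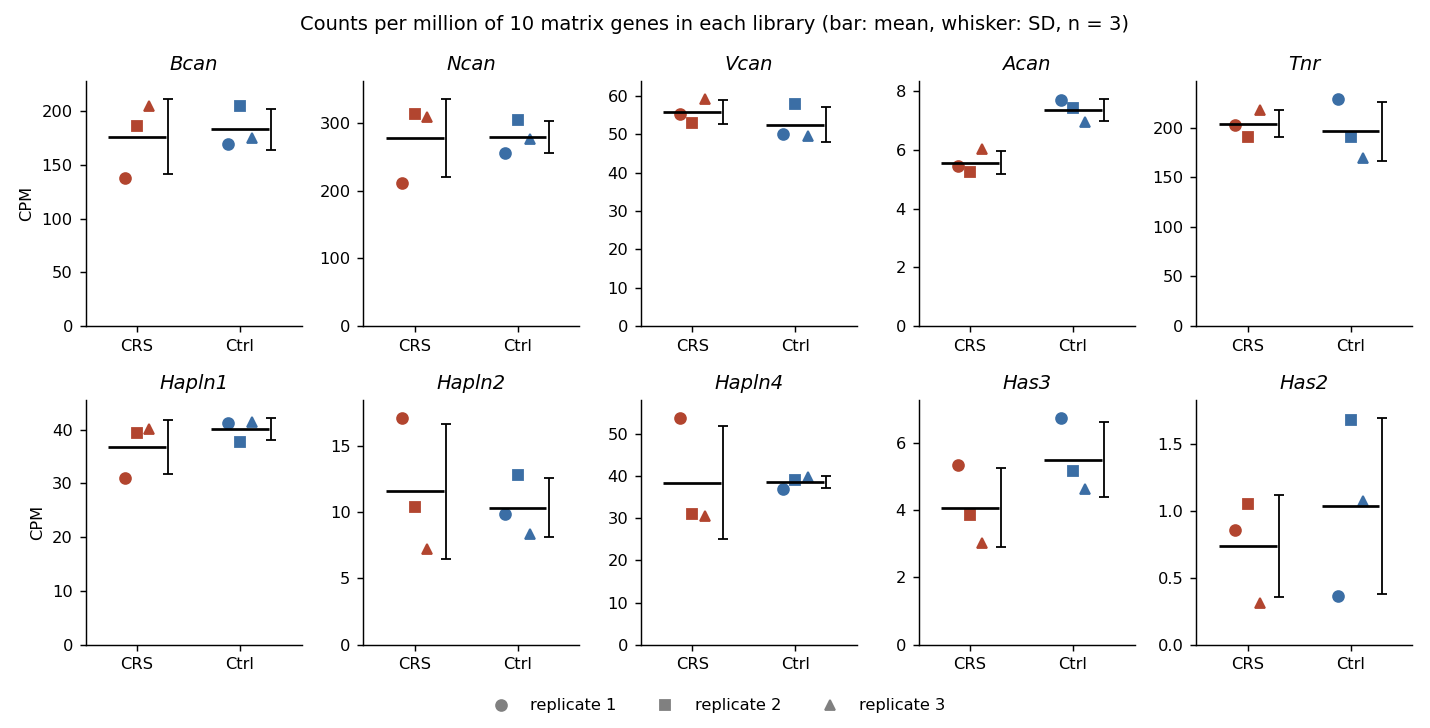
Levels of the 10 matrix genes in CPM (vertical axis of each panel, from 0) in the 3 CRS and 3 Ctrl libraries, with the replicate number as the marker shape, the mean as a bar and the SD as a whisker (n = 3 per group). Acan is the 1 panel among the 9 tested genes in which the groups do not overlap, and CRS replicate 1 is the lowest point for Bcan, Ncan and Hapln1 and the highest for Hapln2 and Hapln4.

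The lectican genes Bcan and Ncan, for the brain-restricted lecticans brevican and neurocan, were the most abundant members per kb of exon. Bcan was at 138, 187 and 205 CPM in CRS replicates 1, 2 and 3, against 169.5, 205 and 176 CPM in Ctrl replicates 1, 2 and 3. Ncan was at 211, 313 and 308 CPM in CRS replicates 1, 2 and 3, against 256, 304 and 277 CPM in Ctrl replicates 1, 2 and 3. For both genes CRS replicate 1 was the lowest of the 6 libraries, so the groups overlapped. CRS replicates 2 and 3 lay above all controls for Ncan, and above 2 of 3 and 3 of 3 controls for Bcan. The log2 fold change of Bcan, CRS over Ctrl, was -0.04 (SE 0.14, 95% interval -0.37 to 0.26). That of Ncan was 0.0048 (SE 0.14, 95% interval -0.33 to 0.31). Without CRS replicate 1 these were 0.10 (SE 0.09) and 0.16 (SE 0.07), with adjusted p-values of 0.728 and 0.459 by edgeR's quasi-likelihood test. Bcan was also positive without Ctrl replicate 2, at 0.043, and Ncan was negative without Ctrl replicate 1, CRS replicate 2 or CRS replicate 3, at -0.047, -0.083 and -0.069. Ncan also turned negative with libraries scaled by total gene count alone, at -0.0079.

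Levels of Bcan and Ncan followed each other across the libraries. Per kb of exon, the ratio of Ncan to Bcan was 0.865, 0.946 and 0.849 in CRS replicates 1, 2 and 3, against 0.852, 0.837 and 0.890 in Ctrl replicates 1, 2 and 3. The ratio therefore stayed within a narrow range while the level of each gene moved by 1.49-fold and 1.48-fold between its lowest and highest library. Both are made by astrocytes, and Bcan also by cells of the oligodendrocyte lineage. The 10 astrocyte markers summed to 6677, 7754 and 7772 CPM in CRS libraries and 8729, 8813 and 7846 CPM in Ctrl libraries, with CRS replicate 1 the lowest here too. In CRS replicates 2 and 3, however, the astrocyte sums lay below all controls, where Ncan lay above all of them. Astrocyte markers were not alone in being lowest in CRS replicate 1. Summed granule neuron markers were at 596 CPM there, against 1194 and 1356 CPM in CRS replicates 2 and 3 and 1030.2 to 1228 CPM in Ctrl. Sums of the CA1 and subicular, neocortical and entorhinal, and thalamus and habenula lists were lowest there as well. The part of these cell types in the levels of Bcan and Ncan was not tested.

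Promoter stretches of Bcan, Ncan and Acan are shown because the first pair moved together and Acan is the member whose groups did not overlap. Each is the 250 bases before the RefSeq start on GRCm38.p6, read 5′ to 3′ on the gene's strand. Capitals mark matches on either strand to a searched motif, namely CCAAT (the CAAT box), TATAAA (the TATA box) or AGAACA (1 arm of the glucocorticoid response element). The Bcan stretch is chr3:88000357-88000606 on the minus strand, that of Ncan chr8:70120845-70121094 on the minus strand, and that of Acan chr7:79052976-79053225 on the plus strand.
Bcan: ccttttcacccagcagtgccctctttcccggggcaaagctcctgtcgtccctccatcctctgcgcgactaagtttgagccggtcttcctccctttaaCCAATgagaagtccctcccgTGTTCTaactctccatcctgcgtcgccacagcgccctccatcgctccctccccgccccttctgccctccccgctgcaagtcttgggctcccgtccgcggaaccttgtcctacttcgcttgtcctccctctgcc
Ncan: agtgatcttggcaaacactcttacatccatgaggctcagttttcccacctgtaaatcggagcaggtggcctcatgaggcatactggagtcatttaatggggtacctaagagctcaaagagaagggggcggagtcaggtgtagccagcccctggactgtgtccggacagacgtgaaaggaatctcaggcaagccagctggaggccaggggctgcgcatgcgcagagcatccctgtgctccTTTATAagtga
Acan: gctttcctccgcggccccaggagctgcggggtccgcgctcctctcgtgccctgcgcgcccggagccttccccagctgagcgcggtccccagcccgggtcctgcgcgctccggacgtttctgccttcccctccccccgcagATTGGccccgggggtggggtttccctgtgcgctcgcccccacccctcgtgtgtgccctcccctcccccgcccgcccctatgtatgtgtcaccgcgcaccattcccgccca

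7 of the 10 members had an entry in the RefSeq promoter table, namely the 4 lectican genes, Hapln1, Hapln2 and Tnr. The CAAT letters lay in 4 of these 7 stretches, those of Acan, Bcan, Vcan and Hapln2, and in 34.5% of 27025 promoters of the same length. The letters of the single arm lay in 1 of the 7, that of Bcan, and in 16.2% of all promoters, and the TATA letters in 1, that of Ncan, and in 13.0%. In Ncan the TATA letters read on the strand opposite to the gene. RefSeq starts differ from the GENCODE positions given below. The last bases of the Ncan stretch, with its TATA letters, lie inside the gene as GENCODE places it. Those of Bcan and Acan end before the GENCODE start. The full element, AGAACA followed after 3 bases by TGTTCT, the E-box CACGTG, the cAMP response element TGACGTCA and the AP-1 site TGANTCA were searched on both strands and had no match in the 7 stretches. They lay in 0.0037%, 6.05%, 1.62% and 6.87% of all promoters. GC made up 62% of the Bcan stretch, 54.4% of that of Ncan and 74.4% of that of Acan.

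Acan encodes aggrecan, the lectican most closely tied to mature perineuronal nets. It was at 5.45, 5.25 and 6.02 CPM in CRS replicates 1, 2 and 3, against 7.71, 7.42 and 6.97 CPM in Ctrl replicates 1, 2 and 3. All 3 CRS libraries lay below all 3 Ctrl libraries. Means were 5.58 ± 0.403 CPM in CRS and 7.36 ± 0.372 CPM in Ctrl (SD, n = 3 each), a log2 fold change of -0.38 (SE 0.15, 95% interval -0.73 to -0.03). The unadjusted p was 0.0365 and the adjusted p 0.540 by edgeR's quasi-likelihood test, so the gene did not pass. Groups that do not overlap, with CRS below, were seen for 9.03% of all tested genes, and for 1 of the 9 tested members. Leaving out CRS replicate 1 gave -0.38 (SE 0.19, 95% interval -0.78 to 0.04), an unadjusted p of 0.0655 and an adjusted p of 0.473 by the same test, and with each library left out in turn the log2 fold change ran from -0.43 to -0.34.

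The depth behind Acan was low. Its counts were 51, 45 and 58 in CRS libraries and 64, 75 and 65 in Ctrl libraries. Counting error alone gives a coefficient of variation of 12.9% at their mean, larger than the 7.22% seen between CRS libraries and the 5.06% between Ctrl libraries. The exact 95% Poisson interval of the highest CRS library, 4.57 to 7.79 CPM, overlapped that of the lowest Ctrl library, 5.38 to 8.88 CPM. Such intervals cover counting error only.

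Among markers of the parvalbumin interneuron, Pvalb itself was at 20.4 to 24.0 CPM in CRS and 24.8 to 27.8 CPM in Ctrl. Syt2, a synaptotagmin of fast-spiking terminals, was at 19.7 to 26.1 CPM in CRS and 35.6 to 39.6 CPM in Ctrl. Kcnc1, a potassium channel gene of fast-spiking neurons, was at 95.5 to 104 CPM in CRS and 109.5 to 134 CPM in Ctrl. Gad1, for a GABA-synthesizing enzyme of all inhibitory neurons, was at 286 to 325 CPM in CRS and 346 to 381 CPM in Ctrl. These 4 of the 9 markers had groups that did not overlap, in the direction of Acan, as was so for 9.03% of all tested genes. The rest of the list overlapped. Tac1 was at 6.23 to 28.9 CPM in CRS and 4.25 to 8.57 CPM in Ctrl, and Gad2 at 160 to 212 CPM in CRS and 151 to 165 CPM in Ctrl. Kcnc2 was at 153 to 197 CPM in CRS and 154 to 181 CPM in Ctrl. The upper CRS values of Tac1, Gad2 and Kcnc2 were those of CRS replicate 1. The other CRS libraries still overlapped the controls for each of these genes. Lhx6 was at 12.8 to 14.4 CPM in CRS and 13.5 to 13.8 CPM in Ctrl, and Erbb4 at 69.2 to 80.7 CPM in CRS and 75.6 to 88.9 CPM in Ctrl. The whole list of 9 markers summed to 952, 900 and 872 CPM in CRS replicates 1, 2 and 3. In Ctrl replicates 1, 2 and 3 the sums were 955, 924 and 1013 CPM. The groups overlapped through CRS replicate 1 alone, and CRS replicates 2 and 3 lay below all controls. 4 of the 9 had a positive and 5 a negative log2 fold change, and 0 were called. Other marker lists lay on either side. Sums below all controls in every CRS library were those of 3 lists. 10 astrocyte markers summed to 6677 to 7772 CPM in CRS and 7846 to 8813 CPM in Ctrl. 8 thalamus and habenula markers summed to 221 to 273 CPM in CRS and 365 to 385 CPM in Ctrl, and 7 neocortical and entorhinal markers to 370 to 512 CPM in CRS and 590.5 to 644 CPM in Ctrl. 7 CA3 pyramidal neuron markers lay the other way, at 1042 to 1483 CPM in CRS and 858 to 994 CPM in Ctrl, as did the choroid plexus markers. 6 markers of CA2 pyramidal neurons summed to 177 to 228 CPM in CRS and 157 to 181 CPM in Ctrl, ranges that overlap. The part of these cell types in the level of Acan was not tested.

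Vcan, for versican, a lectican of oligodendrocyte precursors and of developing brain, varied least of the 9 tested genes. It was at 55.2, 52.8 and 59.1 CPM in CRS replicates 1, 2 and 3, against 49.97, 57.9 and 49.6 CPM in Ctrl replicates 1, 2 and 3. The groups overlapped, and CRS replicate 1 lay in the middle of the range. The log2 fold change was 0.10 (SE 0.09, 95% interval -0.10 to 0.30), 0.10 (SE 0.10) without CRS replicate 1, and it ran from 0.064 to 0.17 with each library left out in turn. The summed level of 9 markers of oligodendrocyte precursors was also fairly even, at 301 to 329 CPM in CRS and 281 to 339 CPM in Ctrl. Single markers of that list varied more, such as Cspg4 at 23.1 to 40.0 CPM in CRS and 23.2 to 32.8 CPM in Ctrl.

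Within the lecticans, Bcan and Ncan made up nearly all of the length-adjusted signal. Of the summed CPM per kb of the 4 genes, Bcan held 50.1 ± 1.20% in CRS and 51.0 ± 0.713% in Ctrl (SD, n = 3 each). Ncan held 44.4 ± 1.69% in CRS and 43.8 ± 0.784% in Ctrl. Vcan held 3.90% to 5.63% in CRS and 3.99% to 4.23% in Ctrl. Acan held 0.750% to 1.077% in CRS and 1.02% to 1.26% in Ctrl. The upper end of the Vcan and Acan shares in CRS came from CRS replicate 1, in which Bcan and Ncan were low.

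Among the link protein genes, Hapln2 and Hapln4 had coefficients of variation over the 6 libraries of 32.6% and 22.1%, and Hapln1 of 10.2%, beside 7.36% to 16.1% for the lectican genes. Hapln4, a brain link protein found with brevican in nets, was at 54.0, 31.0 and 30.5 CPM in CRS replicates 1, 2 and 3, against 37.0, 39.2 and 39.9 CPM in Ctrl replicates 1, 2 and 3. CRS replicate 1 lay above every control and the other CRS libraries below every control. With all 6 libraries the log2 fold change was 0.01 (SE 0.21, 95% interval -0.51 to 0.42), and its adjusted p was 0.991 by edgeR's quasi-likelihood test. Without CRS replicate 1 it was -0.33 (SE 0.09, 95% interval -0.52 to -0.13) with an unadjusted p of 0.00395 and an adjusted p of 0.160, so it did not pass there either. Without Ctrl replicate 1 it was -0.012, and scaling by total gene count gave -0.0052. Summed markers of oligodendrocytes, striatal neurons, CA2 and CA3 pyramidal neurons, choroid plexus, ependymal cells and perivascular fibroblasts were also highest in CRS replicate 1. Of the 10 fibroblast markers, however, 2 were highest there and 3 lowest, and Igf2 made up most of their sum in that library. Of the 6 CA2 markers, 3 were highest there and 1 lowest. In the other lists just named, every marker was highest there. The part of these cells in the high level of Hapln4 was not tested.

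Hapln2, a link protein of myelinating oligodendrocytes found at nodes of Ranvier, was at 17.1, 10.4 and 7.17 CPM in CRS replicates 1, 2 and 3, against 9.87, 12.8 and 8.36 CPM in Ctrl replicates 1, 2 and 3. CRS libraries held both the highest and the lowest value, and the groups overlapped. Its log2 fold change of 0.18 (SE 0.31, 95% interval -0.62 to 0.79) was -0.25 (SE 0.22) without CRS replicate 1 and 0.44 without CRS replicate 3. The 10 oligodendrocyte markers, none of which is a member, summed to 4510, 3003 and 1920 CPM in CRS replicates 1, 2 and 3, against 2398, 3020 and 2499 CPM in Ctrl replicates 1, 2 and 3. Both measures were highest in CRS replicate 1, second in Ctrl replicate 2 and lowest in CRS replicate 3. The part of oligodendrocytes in the level of Hapln2 was not tested.

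Hapln1, the cartilage link protein, which normal nets also need, was at 30.9, 39.3 and 40.1 CPM in CRS replicates 1, 2 and 3, against 41.3, 37.7 and 41.4 CPM in Ctrl replicates 1, 2 and 3. CRS replicate 1 lay below all other libraries, while CRS replicates 2 and 3 lay within the controls. Its log2 fold change was -0.11 (SE 0.11, 95% interval -0.37 to 0.13), and -0.0093 (SE 0.09) without CRS replicate 1. Hapln4 and Hapln1 thus stood at opposite ends in that library, where the length-adjusted ratio of Hapln4 to Hapln1 was 2.63. The ratio was 1.19 and 1.15 in CRS replicates 2 and 3, against 1.35, 1.56 and 1.45 in Ctrl replicates 1, 2 and 3.

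**Figure D2:**
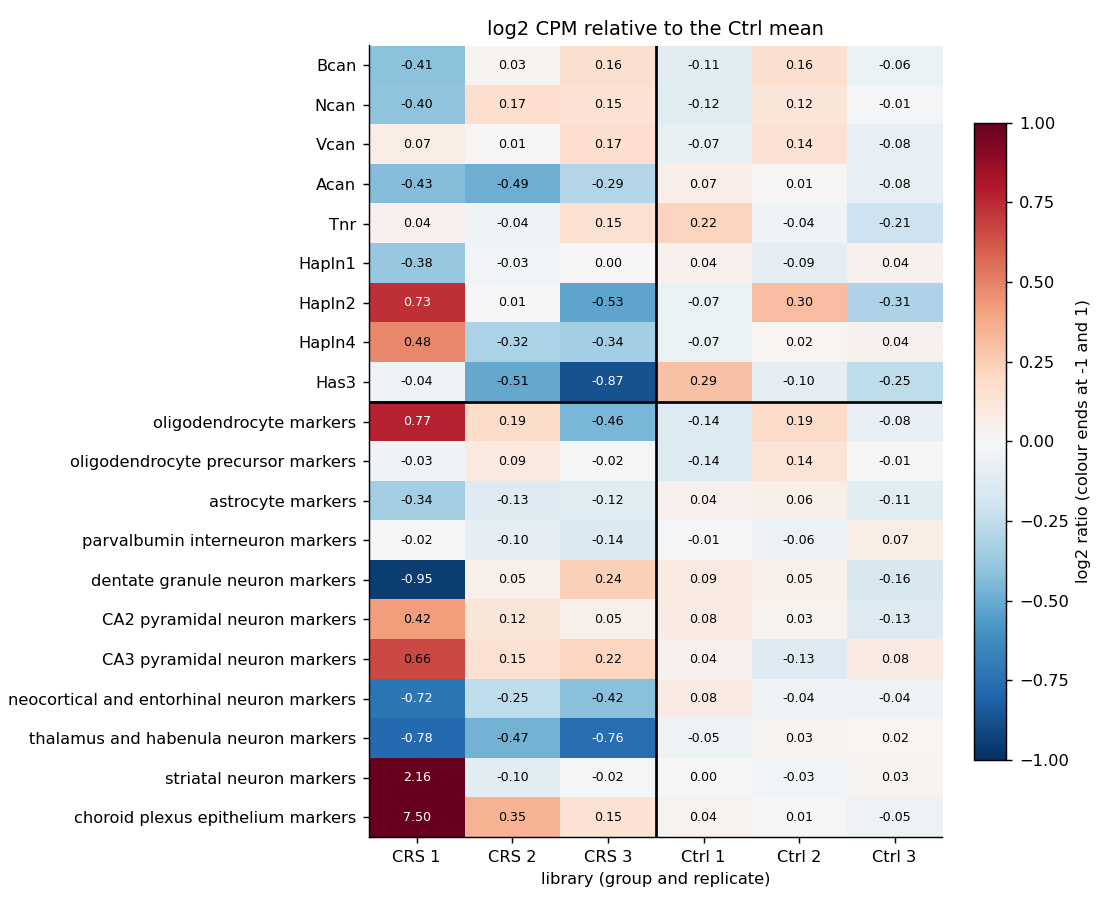
Level of the 9 tested matrix genes (upper rows) and summed level of marker lists (lower rows) in each library, as the log2 ratio of CPM to the mean of the 3 Ctrl libraries. Colour runs from blue (lower) to red (higher) and ends at -1 and 1, and the number in each cell gives the value. CRS replicate 1 holds most of the strong colours, with Bcan at -0.41, Ncan at -0.40, Hapln1 at -0.38, Hapln4 at 0.48 and Hapln2 at 0.73, beside 0.77 for oligodendrocyte markers, -0.95 for granule neuron markers and 7.502 for choroid plexus markers.

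Each lectican gene lies beside a link protein gene in the mouse genome. In GENCODE release M21 on GRCm38 no protein-coding gene lies between the partners of any pair. Acan (chr7:79053483-79115099, plus strand) and Hapln3 (chr7:79115102-79131018, minus strand) end 2 bases apart. Ncan (chr8:70093085-70120873, minus strand) and Hapln4 (chr8:70083457-70090862, plus strand) are 2222 bases apart. Bcan (chr3:87987531-88000230) and Hapln2 (chr3:88021750-88027583) share the minus strand at a gap of 21519 bases. Vcan (chr13:89655312-89742509, minus strand) and Hapln1 (chr13:89539796-89611652, plus strand) are 43659 bases apart. All are annotated as protein-coding.

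Neighbours in these pairs did not keep a fixed ratio across libraries. Per kb of exon, the ratio of Ncan to Hapln4 was 2.13, 5.49 and 5.51 in CRS replicates 1, 2 and 3, against 3.77, 4.23 and 3.78 in Ctrl replicates 1, 2 and 3. CRS libraries lay on both sides of the controls. The ratio of Bcan to Hapln2 was 4.70, 10.5 and 16.7 in CRS replicates 1, 2 and 3, against 10.02, 9.37 and 12.3 in Ctrl replicates 1, 2 and 3. Vcan to Hapln1 was the most even, at 0.729, 0.549 and 0.602 in CRS replicates 1, 2 and 3, against 0.494, 0.627 and 0.490 in Ctrl replicates 1, 2 and 3. Hapln3, the partner of Acan and a link protein gene not counted among the 10, had only 7 to 15 counts per library, at 0.749 to 1.63 CPM in CRS and 1.18 to 1.44 CPM in Ctrl. A log2 fold change of 0.02 became 0.30 without CRS replicate 1.

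Tnr, the tenascin-R gene of oligodendrocyte lineage cells and some neurons, was the second most abundant member by CPM. It was at 203, 191 and 219 CPM in CRS replicates 1, 2 and 3, against 229, 191 and 170.1 CPM in Ctrl replicates 1, 2 and 3. All CRS libraries lay within the range of the controls. The log2 fold change was 0.07 (SE 0.11, 95% interval -0.18 to 0.34). It was 0.06 (SE 0.11) without CRS replicate 1, -0.023 without Ctrl replicate 3 and 0.20 without Ctrl replicate 1, with an adjusted p of 0.910 by edgeR's quasi-likelihood test in all 6 libraries. The Tnr gene (chr1:159523769-159931729, plus strand) is overlapped on the opposite strand by Gm38039 and on the same strand by Gm37731 and Gm10530. None of these symbols is in the count files.

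The hyaluronan synthase genes were scarce. Has3 was at 5.35, 3.85 and 3.01 CPM in CRS replicates 1, 2 and 3, against 6.74, 5.14 and 4.61 CPM in Ctrl replicates 1, 2 and 3, from 29 to 56 counts. CRS replicates 2 and 3 lay below all controls, and CRS replicate 1 lay among them. Its log2 fold change of -0.41 (SE 0.26, 95% interval -1.02 to 0.16) had an adjusted p of 0.740 by edgeR's quasi-likelihood test. Without CRS replicate 1 it was -0.67 (SE 0.26), with an adjusted p of 0.326 by the same test, and without CRS replicate 3 it was -0.22. Without Ctrl replicate 1 it was -0.24. Has3 (chr8:106870242-106884566, plus strand) overlaps Chtf8 on the opposite strand, and Chtf8 had 704 to 949 counts. No source used here states how strand was treated in counting, so values of Has3 are uncertain over the shared stretch.

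Has2, the main synthase of developing tissues, had 8, 9 and 3 counts in CRS replicates 1, 2 and 3, against 3, 17 and 10 counts in Ctrl replicates 1, 2 and 3. The groups overlapped widely, and the exact 95% Poisson interval of a count of 3 runs from 0.619 to 8.77. Fitted with no filter on low counts, Has2 was at -0.51 on the log2 fold change scale, with an adjusted p of 0.853 by edgeR's quasi-likelihood test. It was -0.89 without Ctrl replicate 1 and -0.84 without CRS replicate 2, and no setting that kept the gene called it. Has2 (chr15:56665627-56694539, minus strand) is overlapped on the opposite strand by Has2os, which had 0 to 2 counts. Has1, the remaining synthase gene, had 3 to 6 counts and did not pass the filter either. With no filter its log2 fold change was 0.22, with an adjusted p of 0.944 by the same test.

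**Figure D3:**
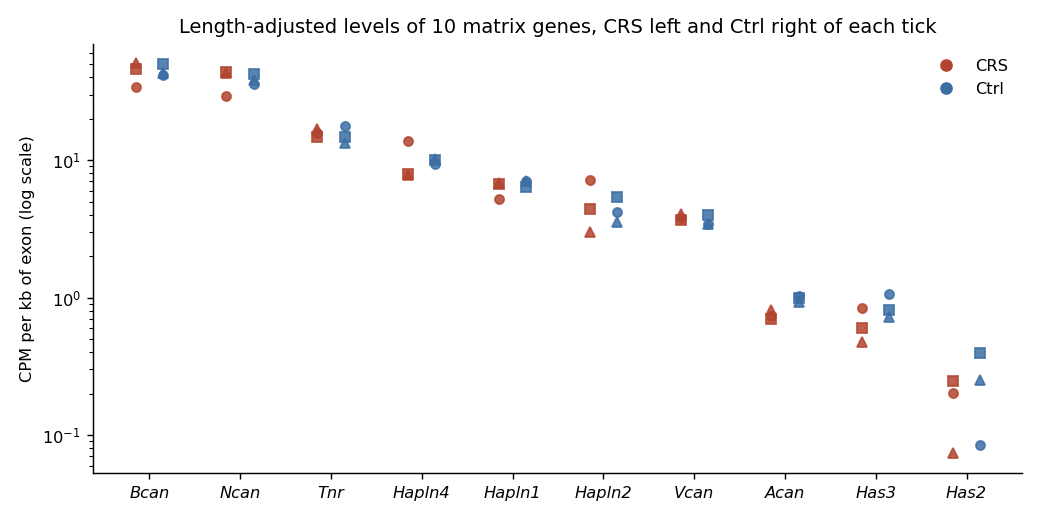
CPM per kb of exon (vertical axis, log scale) of the 10 matrix genes in order of their mean over the 6 libraries, with CRS libraries left and Ctrl libraries right of each tick and the replicate number as the marker shape (1 circle, 2 square, 3 triangle). Bcan and Ncan lead at 44.3 and 38.6 CPM per kb, and Acan, Has3 and Has2 form the low end at 0.866, 0.750 and 0.210.

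Per kb of exon, levels over the 6 libraries spanned a wide range. Bcan averaged 44.3 ± 6.23 and Ncan 38.6 ± 5.48 CPM per kb (SD, n = 6), with overlapping ranges, although Bcan was above Ncan in 6 of 6 libraries. Tnr followed at 15.6 ± 1.65 CPM per kb, below Ncan without overlap. Hapln4 was at 9.84 ± 2.18 CPM per kb, and its highest library reached into the range of Tnr. Hapln1 averaged 6.51 ± 0.668, Hapln2 4.61 ± 1.51 and Vcan 3.74 ± 0.275 CPM per kb, and these 3 neighbours overlapped in turn. Acan at 0.866 ± 0.139 and Has3 at 0.750 ± 0.202 CPM per kb were not separated, with Acan above Has3 in 4 of 6 libraries. Has2 at 0.210 ± 0.120 CPM per kb lay below both. The order was the same with the longest transcript in place of the union of exons.

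**Figure D4:**
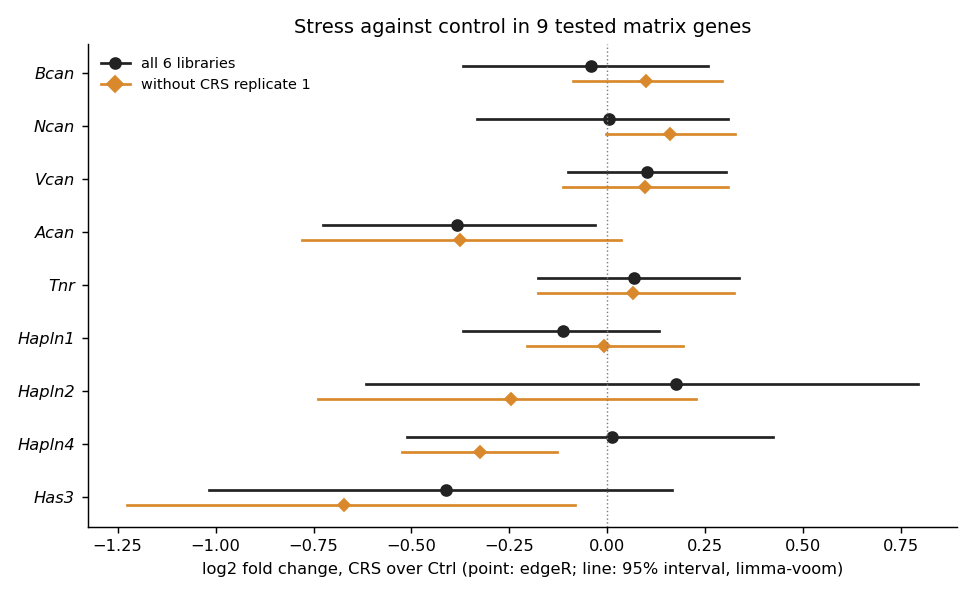
Log2 fold change of the 9 tested matrix genes, CRS over Ctrl (horizontal axis; point from edgeR, line the 95% interval from limma-voom), with all 6 libraries in black and without CRS replicate 1 in orange. Intervals of all genes shown but Acan and Vcan are wider with all 6 libraries, those of Tnr and Has3 only slightly. The point for Hapln4 is at 0.01 with and -0.33 without CRS replicate 1.

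Leaving out CRS replicate 1 changed which members had groups without overlap. With 5 libraries these were 4 of the 9 tested members, Acan, Hapln4 and Has3 with CRS below Ctrl and Ncan with CRS above, against 29.2% of all tested genes. With all 6 libraries it was 1 of 9, against 14.7% of all tested genes. No member was called at an adjusted p under 0.05 by edgeR's quasi-likelihood test without that library, when 0.289% of genes were. Leaving out Ctrl replicate 1 gave 2 such members, Acan with CRS below and Tnr with CRS above, against 24.7% of genes. Leaving out Ctrl replicate 2 gave 3, Acan and Hapln1 with CRS below and Vcan with CRS above, against 22.7%. Leaving out Ctrl replicate 3, CRS replicate 2 or CRS replicate 3 gave Acan alone, against 23.6%, 26.1% and 22.3%.

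Genes whose levels were most like those of a member were sought for the 3 tested members with the largest spread over libraries, Hapln2, Has3 and Hapln4. Likeness was the root mean square difference of log2 CPM, centred over the 6 libraries, among 13339 other tested genes whose average log2 CPM reached 1. Nearest to Hapln2 were Sec14l5 at a difference of 0.065, C030029H02Rik at 0.075 and Evi2a at 0.075. Nearest to Has3 were Slc38a2 at 0.074, Casp6 at 0.095 and Cyp4f17 at 0.098. Nearest to Hapln4 were A330021E22Rik at 0.053, Arhgap18 at 0.062 and Tmbim1 at 0.067. Like Hapln4, these last 3 were highest in CRS replicate 1, which follows from their choice by likeness over the same libraries. Tmbim1 for example was at 34.0 CPM there, against 19.2 and 19.8 CPM in the other CRS libraries and 21.8 to 25.4 CPM in Ctrl libraries.

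The wider matrix pathway was covered by 89 further genes for hyaluronan turnover, other proteoglycans and tenascins, chondroitin sulfate synthesis, proteases with their inhibitors, and proteins that bind nets. 83 were tested, and 0 were called higher or lower by edgeR's quasi-likelihood test, against 0.0285% of all tested genes called. At an unadjusted p under 0.05, 6 were higher, against 3.86% of all tested genes, and 4 were lower, against 4.85%. The median log2 fold change was 0.02, beside 0.0038 over all tested genes, with 46 positive and 37 negative. Groups did not overlap for 9 of the 83 with CRS higher, against 5.68% of all tested genes, and for 6 with CRS lower, against 9.03%. Without CRS replicate 1 the median was 0.01, with 43 positive and 40 negative. By role, with all 6 libraries, medians were -0.07 for 15 hyaluronan and link genes, 0.03 for 17 proteoglycan and tenascin genes, 0.03 for 22 chondroitin sulfate synthesis genes, 0.03 for 16 proteases and inhibitors and 0.08 for 13 net-binding proteins and receptors. Without CRS replicate 1 these medians, in the same order, were -0.08, 0.02, 0.08, -0.05 and 0.06, so that of the proteases and inhibitors changed sign.

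Among other proteoglycans, Cspg5, for neuroglycan C, averaged 167 ± 43.3 CPM in CRS and 206 ± 13.0 CPM in Ctrl. Its fold change on the log2 scale was -0.28 (SE 0.17), and CRS replicate 1 was the lowest library at 117 CPM, against 192 and 193 CPM in the other CRS libraries and 191 to 216 CPM in Ctrl. Without that library the log2 fold change was -0.09. Ptprz1, the receptor phosphatase whose secreted form is phosphacan, averaged 293 ± 13.1 CPM in CRS and 324 ± 33.4 CPM in Ctrl. Cspg4, the NG2 proteoglycan of oligodendrocyte precursors, averaged 32.8 ± 8.74 CPM in CRS and 29.6 ± 5.51 CPM in Ctrl. The tenascin-C gene Tnc averaged 17.4 ± 4.07 CPM in CRS and 19.0 ± 2.38 CPM in Ctrl. The log2 fold change of Ptprz1 without CRS replicate 1 was -0.10, against -0.13 with all 6 libraries, that of Cspg4 0.35 against 0.16, and that of Tnc 0.06 against -0.12. Cspg4 was at 0.0014 without CRS replicate 3 and 0.022 without Ctrl replicate 1. None of these passed.

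Genes for chain synthesis and for proteases with their inhibitors were mixed. The sulfotransferase gene Chst11 averaged 76.6 ± 23.3 CPM in CRS and 60.2 ± 2.16 CPM in Ctrl, with 104 CPM in CRS replicate 1. On the log2 scale the fold change was 0.37 with all 6 libraries and 0.08 without that one. Chst3, a chondroitin 6-sulfotransferase gene, averaged 3.31 ± 0.787 CPM in CRS and 2.45 ± 0.0356 CPM in Ctrl, with a log2 fold change of 0.45, and of 0.26 without CRS replicate 1. The lectican-cleaving protease gene Adamts4 averaged 16.8 ± 6.22 CPM in CRS and 13.8 ± 2.24 CPM in Ctrl, highest in CRS replicate 1 at 23.7 CPM. Its log2 fold change of 0.30 was -0.058 without that library. Adamts5, a protease gene of the same family, averaged 2.11 ± 1.14 CPM in CRS and 3.03 ± 0.760 CPM in Ctrl, and Mmp9, a matrix metalloprotease gene linked to synaptic plasticity, 0.880 ± 0.266 CPM in CRS and 1.23 ± 0.548 CPM in Ctrl. The log2 fold change of Adamts5 without CRS replicate 1 was -1.002, against -0.49 with all 6 libraries, and it was -0.15 without CRS replicate 3 and -0.29 without Ctrl replicate 1. For Mmp9 it was -0.50 with all 6 libraries, -0.33 without CRS replicate 1, -0.27 without Ctrl replicate 3 and -0.79 without Ctrl replicate 1. The inhibitor gene Timp3 averaged 110.5 ± 12.9 CPM in CRS and 112 ± 9.68 CPM in Ctrl, a log2 fold change of -0.0028, and of -0.11 without CRS replicate 1.

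The 4 pathway genes with the smallest p also did not pass. Plxna1, a receptor subunit for semaphorins that nets can hold, averaged 189.9 ± 35.0 CPM in CRS and 122 ± 13.2 CPM in Ctrl. At a log2 fold change of 0.66 (SE 0.14), its adjusted p was 0.232 by edgeR's quasi-likelihood test, 0.00219 by DESeq2 and 0.00527 by edgeR's exact test, and alternatives ran from 0.00219 to 0.707. Rtn4rl1, a Nogo receptor family gene whose product binds chondroitin sulfate, averaged 70.8 ± 7.74 CPM in CRS and 53.9 ± 2.57 CPM in Ctrl (log2 fold change 0.41, SE 0.10). Nptx2, a pentraxin that binds nets on parvalbumin interneurons, averaged 17.6 ± 3.91 CPM in CRS and 11.1 ± 1.17 CPM in Ctrl. Its log2 fold change of 0.68 (SE 0.18) had an adjusted p of 0.304 by edgeR's quasi-likelihood test, and 0.0421 without CRS replicate 1. Sparcl1, the astrocyte matrix protein hevin, averaged 1684 ± 168 CPM in CRS and 2134 ± 111 CPM in Ctrl (log2 fold change -0.33, SE 0.08). Leaving out CRS replicate 1 gave log2 fold changes of 0.51 for Plxna1, 0.33 for Rtn4rl1, 0.82 for Nptx2 and -0.26 for Sparcl1. For each of these 4 genes the groups did not overlap, as for 14.7% of all tested genes. Their choice by smallest p favours this, so it adds no support.

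**Figure D5:**
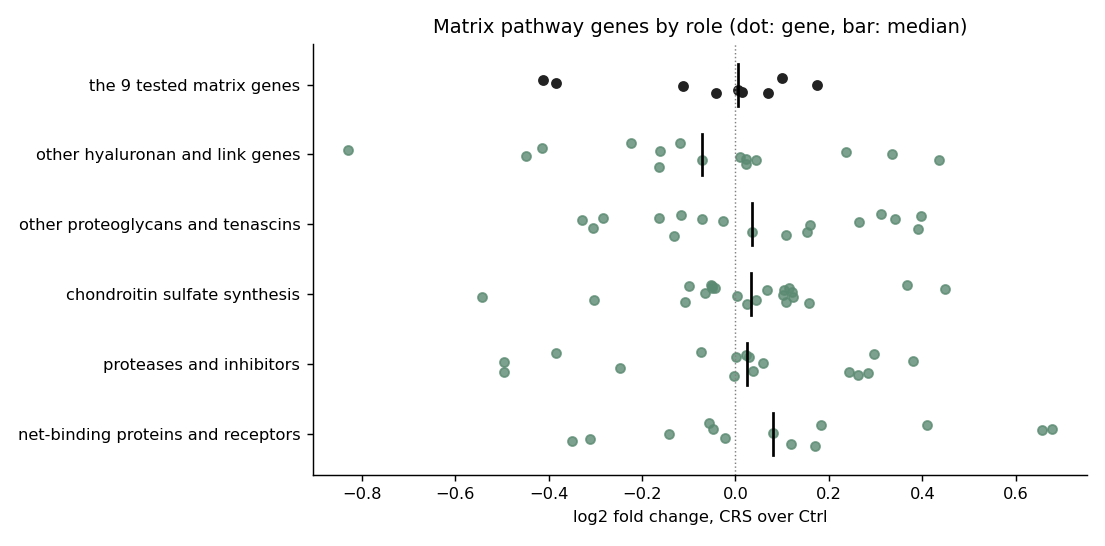
Log2 fold change, CRS over Ctrl (horizontal axis), of the 9 tested matrix genes (black, top row) and of 83 tested matrix pathway genes by role (green), 1 dot per gene with the median of each row as a bar. Every median lies between -0.07 and 0.08, and no dot passed an adjusted p of 0.05 by edgeR's quasi-likelihood test.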

How the data were processed

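The authors deposited 1 file per library with whole-number counts per gene symbol and no normalization, in HTSeq's format. Tools listed in the submitters' processing notes, with no role, are edgeR 3.12.0, HTSeq 0.6.1, TopHat2 2.0.9, Trimmomatic 0.33 and FastQC 0.11.3, and GRCm38 and mm10 are the builds. Per the labels' protocols, a stranded total RNA kit with ribosomal RNA removal was used. The gene annotation behind the counts was not given in the sources used here. Reads assigned to no gene made up 59.5% to 63.1% of the reads listed in a deposited count file and ambiguous ones 0.211% to 0.253%, and both stayed out of library sizes and tests.

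CPM were computed on gene counts. CRS was compared with Ctrl in R 4.3.3 by the quasi-likelihood F-test of edgeR 4.0.16 as a two-sided test on group alone, after filterByExpr (14058 genes kept) and TMM scaling. P-values were adjusted by Benjamini-Hochberg over all kept genes, at a threshold of 0.05. Standard errors and 95% intervals came from limma 3.58.1 (voom), so an interval need not centre on the edgeR value. The fit was tested on simulated counts. It called 54% of 1.5-fold, 91.6% of 2-fold and 99.6% of 4-fold changes, and 6.03% of its calls were false. Smaller changes, and changes in genes of low counts, were not simulated, so a member not called may still differ. Scaling, filter, tool (DESeq2 1.42.0 among them), threshold, replicate block and single libraries were varied. Likeness used log2 of CPM plus 0.5. Exon lengths, positions and overlaps came from GENCODE M21, where 10 of 10 members matched 1 gene, and promoters from RefSeq. No 2 libraries agreed within sampling noise.

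The members and the lists of pathway genes and markers were chosen with earlier results of these data known. Named are all members, 12 pathway genes fixed by name, the 4 pathway genes with the smallest p, the markers and the 3 genes most like each of 3 members.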

Additional observations from a re-analysis of the deposited data

How the results depend on the processing

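No member was called in any of the fits run. Over all genes, 0 were higher and 4 lower by edgeR's quasi-likelihood test, against 39 and 68 by DESeq2 and 44 and 87 by edgeR's exact test, while limma-voom called 1 lower. With 1 library left out these counts ran from 0 to 11 higher and from 0 to 30 lower. Of the pathway genes, DESeq2 and the exact test each called 1, Plxna1, and leaving out 1 library gave 0 to 1, Nptx2 without CRS replicate 1. Members without overlap between groups numbered 1 to 4 with 1 library left out, an alternative added after the data were seen, as were list medians without CRS replicate 1. The cause of these differences was not tested.

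The log2 fold changes of 9 named genes changed sign in at least 1 fit. Ncan was -0.0079 with total gene count scaling, -0.013 by limma-voom and -0.011 with the replicate block, Hapln4 -0.0052, -0.044 and -0.037 in the same 3 fits, and Hapln3 -0.043 by limma-voom. Timp3 was 0.00022 with RLE scaling, 0.0024 with the CPM filter and 0.00029 by DESeq2. With 1 library left out, values ran from -0.16 to 0.10 for Bcan, -0.083 to 0.16 for Ncan, -0.25 to 0.44 for Hapln2, -0.33 to 0.17 for Hapln4 and -0.023 to 0.20 for Tnr. They ran from -0.15 to 0.30 for Hapln3, -0.22 to 0.057 for Tnc, -0.058 to 0.51 for Adamts4 and -0.11 to 0.064 for Timp3. Acan, Hapln1, Has3 and Vcan kept their sign in all 16 alternative fits.

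Same-numbered libraries correlated in their deviations from the group means at 0.14, -0.0076 and 0.042 for replicates 1, 2 and 3. Only replicate 1 correlated best with its own number. CRS replicate 2 correlated best with Ctrl replicate 3, at 0.059, and CRS replicate 3 with Ctrl replicate 2, at 0.12. With 3 libraries per group, these values cannot decide whether the numbers pair the samples. With the replicate block 0 genes were called higher and 0 lower. Low counts limit Has2, Has1, Acan and Has3.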
